A study of Mus musculus with 6 samples.

Results

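The chemokines, the interleukins and the receptors of both were followed in bulk RNA-seq libraries of F1 mESCs and the CPCCs derived from them. Members were chosen by symbol: all genes of the 2 deposited count tables whose name starts with Ccl, Ccr, Cxcl or Cxcr and a number, or with Il and a number, except *Il6st* and *Il6ra*. This gave 70 members of the 16279 genes listed in either table. They are 13 CC chemokines, 8 CXC chemokines, 7 chemokine receptors, 15 interleukins, 25 interleukin receptors, and *Il18bp* and *Il4i1*, which carry an interleukin symbol but encode a soluble inhibitor of IL-18 and an enzyme. The mESCs were untreated male F1 cells of a C57BL/6J mother and a CAST/EiJ father, derived from 3 blastocysts, first established on feeder cells, moved to feeder-free medium with LIF and 2 inhibitors that hold the naive state, and then cloned from single cells. The CPCCs were the same male F1 genotype, taken through embryoid bodies and then expanded in medium with EGF and Fgf2, and the study describes them as a mixed culture rather than 1 cell type. No age applies to these cultured cells. Each cell type had 3 libraries, which carry no replicate numbers in the tables and are named here by column, S01 to S03 (mESC) and S04 to S06 (CPCC).

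Chemokines are small secreted proteins that guide cell movement along gradients. They bind receptors spanning the membrane several times that signal through inhibitory G proteins, while atypical receptors take chemokines up without that signal. Interleukins are secreted proteins that act on paired receptor chains. Most of these chains signal through JAK kinases and STAT factors, whereas receptors of the IL-1, IL-18 and IL-17 families use adaptors that lead to NF-kappa-B. Stromal cells and macrophages are well known sources of many of these factors, and the *Cxcl12* and *Cxcr4* pair is known for its role in the formation of the heart and its vessels.

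The CPCC libraries were deeper (8468819 to 11436062 counts) than those of mESCs (6442639 to 6907330 counts), and S04 was the deepest. Values are in CPM, counts per 1000000 of a library size scaled by TMM, a normalization of edgeR. This size was taken over the genes listed for both cell types and ran from 6473397 (S01) to 10059905 (S04). Genes missing for a cell type are not part of it. Each table leaves out genes with fewer than 10 counts over its 3 libraries, so a missing member was set at 3 counts per library, which equals a mean of 0.448 CPM in the mESC libraries and 0.335 CPM in CPCCs, and its fold is given as a bound from observed counts. In summed levels, a gene missing for a cell type counted as 0 instead. All 8 mESC markers were lower in CPCCs, with summed levels of 5304 to 5568 CPM in the mESC libraries and 122 to 286 CPM in CPCCs. The 10 fibroblast and mesenchyme markers summed to 13.5 to 21.5 CPM in the mESC libraries and 6541 to 10080 CPM in CPCCs. Markers of cardiac precursors summed to 9.89 to 16.1 CPM in the mESC libraries and to 199.7 to 294 CPM in CPCCs, mostly *Fst*. *Tbx20* was higher in CPCCs (log2 fold change 2.72, edgeR adjusted p = 0.00472), with 76.4, 27.3 and 17.9 CPM in S04, S05 and S06. Listed for CPCCs only were *Mef2c* (19.3, 9.94 and 12.8 CPM), *Sox9* (26.3, 22.8 and 21.9 CPM) and *Hand2* (6.76, 1.09 and 1.95 CPM). *Gata4*, *Isl1* and *Pdgfra* did not pass (edgeR adjusted p = 0.137, 0.124 and 0.0609). *Nkx2-5*, a defining factor of this lineage, had only 1.59, 0 and 0.917 CPM in the same CPCC libraries. *Tbx5* was missing from the CPCC table. Endothelial markers summed to 93.3 to 102.5 CPM in mESCs, nearly all from *Pecam1*, and to 14.8 to 29.3 CPM in CPCCs. Of this list, *Cdh5*, *Emcn* and *Kdr* were listed for CPCCs only. In S04, S05 and S06, *Cdh5* had 12.5, 1.33 and 1.6 CPM, *Emcn* 5.47, 3.88 and 1.38 CPM and *Kdr* 2.39, 5.46 and 2.18 CPM. *Erg* was listed for mESCs only, at 0, 1.18 and 1.02 CPM in S01, S02 and S03. *Tek* had means of 5.53 CPM in the mESC libraries and 3.41 CPM in CPCCs (edgeR adjusted p = 0.28). *Cldn5* and *Tie1* are in neither table. S04 stood apart in genes of blood cells. The 15 immune markers listed summed to 430, 139.9 and 64.3 CPM in S04, S05 and S06 and to 69.9 to 84.1 CPM in mESCs, where *Laptm5* alone held 51.3 to 59.9 CPM. Of the 13 in the CPCC table, 11 were highest in S04 and lowest in S06. *Lyz2*, a lysozyme of myeloid cells, had 125, 33.1 and 14.0 CPM, and *Ptprc*, which encodes CD45, had 15.6, 2.79 and 0.344 CPM. Both are missing from the mESC table. The B cell gene *Cd79a* and the T cell gene *Cd8a* are in neither table, and *Cd3e* and *Cd4* are listed for mESCs only. In such bulk samples more cells of a type and more RNA per cell cannot be told apart. Results below that turn on S04 are given without it as well, or with the value in each CPCC library.

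Members were listed more often for CPCCs. Of the 70, 40 were listed for CPCCs only (57.1%, where 15.5% of all genes were), 3 for mESCs only (4.29%, against 4.67% of all genes) and 27 for both. Sequencing depth moves with this count: with the CPCC counts scaled to the mESC total, 32 of the 40 members would still have reached 10 counts (80%), as would 2090 of all 2518 CPCC-only genes (83%). At least 10-fold higher by the bound were 15 of the 40 members, against 27.1% of all CPCC-only genes, and 11 without S04. Of the 27 members in both tables, 4 had too few counts to test (*Ccr7*, *Il17d*, *Il12rb2* and *Il3ra*). Among the 23 tested by the quasi-likelihood test of edgeR, Benjamini-Hochberg adjusted over all 12471 genes tested, 10 were higher in CPCCs (43.5%, against 31.7% of all genes), 1 was lower (4.35%, against 29.7%) and 12 did not pass. Calls in either direction thus made up 47.8% of the members tested and 61.4% of all genes tested. Their median log2 fold change was 0.90, and that of all genes tested was 0.03. The members' median was 0.39 without S01, 0.44 with no filter on low counts, and 2.62 or 2.46 with missing genes set to 0 or 3 counts. All 3 CPCC libraries were above all 3 mESC libraries for 10 of the 27 members and below for 3, while 34.1% and 33.4% of all genes in both tables did so. Summed over all members, the level was 130.4, 155 and 144 CPM in S01, S02 and S03, against 1418, 967 and 669 CPM in S04, S05 and S06. The 40 members missing from mESCs entered the mESC sums as 0. In these sums, in which long transcripts weigh more, *Cxcl12* alone held 50.5%, 50.7% and 37.7% of this sum in the CPCC libraries. Without it the sum was still 702, 477 and 417 CPM, above every mESC library.

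**Figure D1:**
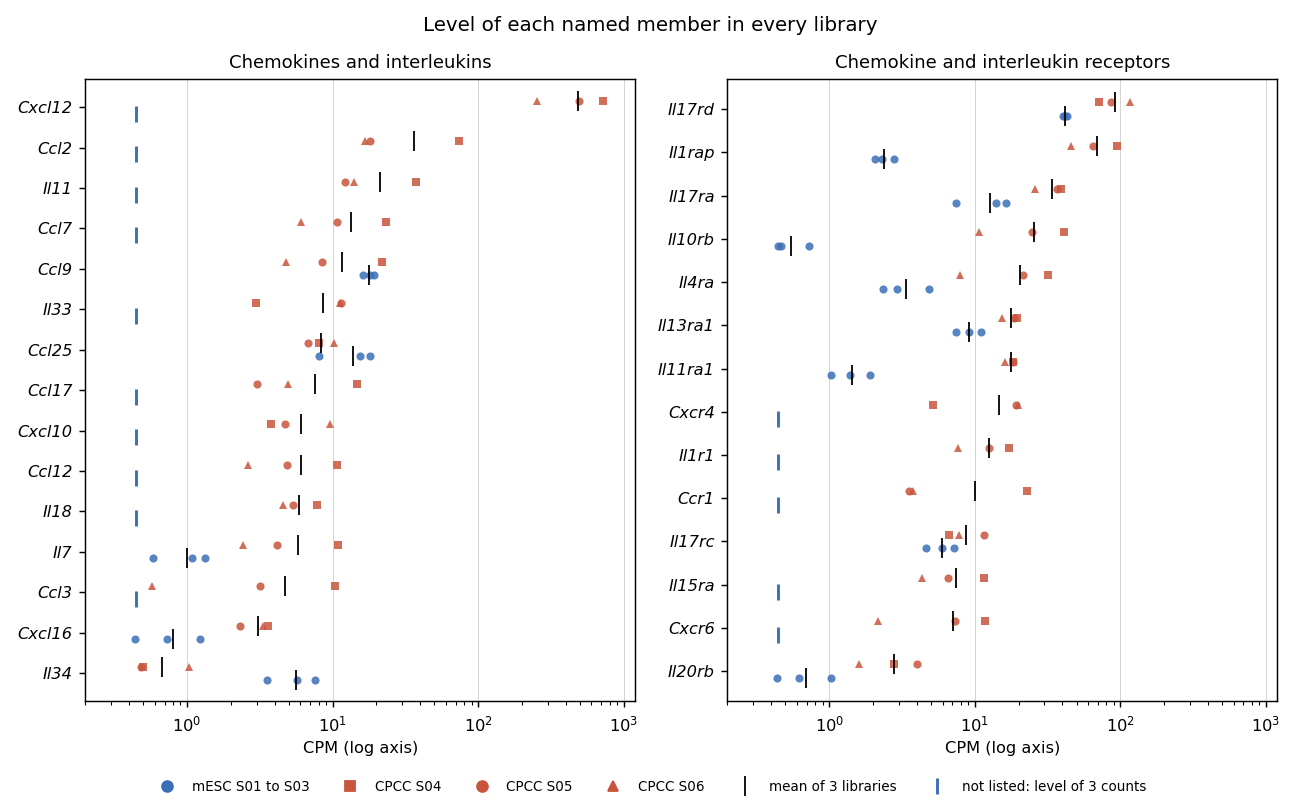
CPM (log axis) in every library of the 15 ligands and 14 receptors with at least 5 CPM in a cell type, a change past the test or a bound of at least 10-fold. Blue points are mESC libraries, red squares, circles and triangles are S04, S05 and S06, black bars are means of 3 libraries, and a blue bar marks the level of 3 counts where a gene is missing from the mESC table. *Cxcl12* sits at 252 to 716 CPM, above all other members, and S04 lies highest for *Ccl2*, *Ccr1* and *Il11* but lowest for *Cxcr4*, *Il33* and *Cxcl10*.

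Among the CXC chemokines, the data showed 1 dominant ligand. *Cxcl12*, the ligand of CXCR4 and of the atypical receptor ACKR3 (chromosome 6, 117168535 to 117181369, GRCm38), had 716, 489.9 and 252 CPM in S04, S05 and S06 and was missing from the mESC table. With a mean of 486 ± 232 CPM (SD, n = 3) it was at least 1085-fold higher in CPCCs, and at least 829-fold without S04. It made up 93.0% to 97.7% of the summed CXC chemokine level of each CPCC library. S04 was highest and S06 lowest, and within each CPCC library it had the highest level per kb of exon of all members. Its promoter is shown because it belongs to the most abundant member. RefSeq on GRCm38.p6 places it at chr6:117168285-117168584 on the + strand, from 250 bases before to 50 after the start of the gene. It reads 5′ to 3′ as follows. It holds none of the 4 motifs searched in all promoters (given in the last paragraph of the results), so no base is in capitals.
Cxcl12: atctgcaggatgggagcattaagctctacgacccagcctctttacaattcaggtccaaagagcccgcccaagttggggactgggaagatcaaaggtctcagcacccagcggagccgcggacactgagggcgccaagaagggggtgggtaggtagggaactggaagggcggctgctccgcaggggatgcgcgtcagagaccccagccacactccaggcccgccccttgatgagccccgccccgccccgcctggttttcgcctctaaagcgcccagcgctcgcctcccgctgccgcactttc

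*Cxcl10*, which attracts activated T cells through CXCR3 and is a classic target of interferon, ran the other way among the CPCC libraries. It had 3.78, 4.73 and 9.63 CPM in S04, S05 and S06, at least 13.5-fold above mESCs, where it was missing. S06 alone was over 9 CPM, and without S06 the bound was 9.5-fold. Its neighbour *Cxcl11*, a ligand of the same receptor, was in the same order at 0.596, 0.970 and 1.49 CPM and also missing from mESCs, and the exons of another gene on the other strand overlap 41.7% of its exon bases. *Cxcl10* and *Cxcl11* lie together on chromosome 5, 92346639 to 92363297. The *Cxcl10* promoter is shown for its matches of 3 motifs. It lies at chr5:92348840-92349139 on the − strand, and its capitals mark, in order, an ISRE match 213 bases before the start, a kappa-B match at 159, 2 kappa-B matches that overlap at 104 and 103, and an AP-1 match at 74.
Cxcl10: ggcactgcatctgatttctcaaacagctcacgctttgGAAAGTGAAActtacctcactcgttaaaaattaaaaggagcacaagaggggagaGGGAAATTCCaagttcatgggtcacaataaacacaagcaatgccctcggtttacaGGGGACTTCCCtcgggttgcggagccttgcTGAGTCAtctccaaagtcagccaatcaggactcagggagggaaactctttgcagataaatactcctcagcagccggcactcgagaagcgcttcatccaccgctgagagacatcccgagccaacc

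Of the other CXC chemokines, *Cxcl16*, a membrane-bound ligand that is shed to attract CXCR6 cells, was higher in CPCCs. It had 1.24, 0.441 and 0.731 CPM in S01, S02 and S03, against 3.58, 2.30 and 3.32 CPM in S04, S05 and S06, without overlap (log2 fold change 1.92, standard error 0.60, edgeR adjusted p = 0.0209). The call was lost without S02, S03, S04 or S06, with adjusted p of up to 0.0791. Exons of *Zmynd15* on the other strand overlap 18.3% of its exon bases, and the libraries were made with a kit that does not mark strand. *Cxcl14*, a chemokine of epithelia and stroma, had 3.09, 4.56 and 2.19 CPM in the mESC libraries and 3.98, 0.485 and 0.573 CPM in S04, S05 and S06. With all libraries it did not pass (log2 fold change −0.94, adjusted p = 0.342), whereas without S04 its log2 fold change was −2.58 (adjusted p = 0.012). The neutrophil attractants *Cxcl1*, *Cxcl5* and *Cxcl15*, which lie on chromosome 5 between 90759298 and 90893116, were all missing from mESCs. Their means in CPCCs were 2.19, 1.95 and 0.818 CPM, which put them at least 4.88-, 4.35- and 1.83-fold higher. Without S04 the bound of *Cxcl5* was 2.09-fold.

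The CC chemokines were led by the monocyte attractants of 1 cluster on chromosome 11 (82035577 to 82103400), *Ccl2*, *Ccl7* and *Ccl12*, all ligands of CCR2 and all missing from mESCs. *Ccl2* had 73.9, 18.1 and 16.7 CPM in S04, S05 and S06 (at least 80.9-fold higher in CPCCs, 38.9-fold without S04). *Ccl7* had 23.2, 10.7 and 6.07 CPM (at least 29.7-fold, 18.7-fold without S04). *Ccl12* had 10.6, 4.85 and 2.64 CPM (at least 13.5-fold, 8.36-fold without S04). All 3 were highest in S04 and lowest in S06, the order of the immune markers, and each CPCC library was above the mESC level of 3 counts. The part of those markers' cells in the result was not tested. No *Ccr2* row is among the members. The *Ccl12* promoter is shown as the only one of this cluster in the RefSeq table used. It lies at chr11:82101595-82101894 on the + strand, and its capitals mark a TATA box 31 bases before the start.
Ccl12: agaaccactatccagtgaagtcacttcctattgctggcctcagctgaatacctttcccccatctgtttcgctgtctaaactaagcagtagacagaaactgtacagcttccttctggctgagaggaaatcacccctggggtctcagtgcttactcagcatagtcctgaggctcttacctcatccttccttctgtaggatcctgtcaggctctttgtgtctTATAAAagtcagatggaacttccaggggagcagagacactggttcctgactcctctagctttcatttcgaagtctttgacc

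A second cluster on chromosome 11 (83572917 to 83664684) holds *Ccl9*, *Ccl6*, *Ccl3* and *Ccl4*, and here the members differed. *Ccl9*, a ligand of CCR1 made by macrophages and other cells, was the only one listed for both cell types. It had 16.1, 19.3 and 18.0 CPM in S01, S02 and S03, against 21.7, 8.49 and 4.81 CPM in S04, S05 and S06. The libraries overlapped only through S04. With all libraries the difference did not pass (log2 fold change −0.60, standard error 0.48, adjusted p = 0.302), and without S04 it was lower in CPCCs at −1.41 (adjusted p = 0.00272). Its 3 neighbours were missing from mESCs and concentrated in S04. *Ccl3*, a ligand of CCR1, had 10.3, 3.15 and 0.573 CPM in S04, S05 and S06 (at least 10.5-fold higher, 4.16-fold without S04). *Ccl4*, an attractant of immune cells, had 5.37, 2.79 and 0.458 CPM (at least 6.41-fold, 3.63-fold without S04). *Ccl6*, also a CCR1 ligand, had 9.74, 0.364 and 0.344 CPM, and its bound was 7.78-fold with S04 and 0.790 without it, so that no direction holds without that library. The *Ccl9* promoter is shown as that of the chemokine with the highest mESC level per kb of exon. It lies at chr11:83578587-83578886 on the − strand, and its capitals mark TATA boxes at 224, 94 and 92 bases before the start (the latter 2 overlap on opposite strands), an AP-1 match at 53 and a kappa-B match at 35.
Ccl9: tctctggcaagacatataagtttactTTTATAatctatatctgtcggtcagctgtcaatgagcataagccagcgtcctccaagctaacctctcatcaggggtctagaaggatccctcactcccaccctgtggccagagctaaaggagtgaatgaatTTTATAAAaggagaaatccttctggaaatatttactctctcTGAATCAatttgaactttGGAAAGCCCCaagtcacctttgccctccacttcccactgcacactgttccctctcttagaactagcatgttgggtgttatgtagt

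Away from these clusters, *Ccl17*, a CCR4 ligand that attracts T cells, had 14.7, 3.03 and 4.93 CPM in S04, S05 and S06 and was missing from mESCs (at least 16.9-fold higher, 8.89-fold without S04). *Ccl25*, a ligand of CCR9 known from thymus and gut, was well above the floor in mESCs. It had 8.03, 18.1 and 15.4 CPM in S01, S02 and S03, against 8.05, 6.79 and 10.2 CPM in S04, S05 and S06. The libraries overlapped and it did not pass (log2 fold change −0.73, adjusted p = 0.11), but without S01 it was lower in CPCCs (−1.0, adjusted p = 0.0362). *Ccl27a*, a skin chemokine, had a mean of 1.69 ± 0.321 CPM in the mESC libraries and 3.16 ± 1.52 CPM in CPCCs (SD, n = 3 each) and did not pass (adjusted p = 0.205). *Ccl27a* and *Ccl21b* belong to gene families with near-identical copies on chromosome 4, so their counts are uncertain, and *Ccl21b* at a mean of 0.386 CPM in CPCCs was below the mESC level of 3 counts, so it has no bound. *Ccl20* (mean 1.04 CPM, at least 2.33-fold, 0.948 without S04) and *Ccl28* (mean 0.80 CPM, at least 1.79-fold, 0.888 without S06) complete the CC chemokines, and both had a CPCC library with no count.

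Chemokine receptors were few. *Cxcr4*, the receptor of CXCL12 (chromosome 1, 128588199 to 128592300), had 5.17, 19.3 and 19.7 CPM in S04, S05 and S06 and was missing from mESCs (14.7 ± 8.28 CPM, SD, n = 3, at least 32.9-fold higher). S04 was its lowest CPCC library, where its ligand *Cxcl12* was highest, and without S04 the bound rose to 43.5-fold. The atypical receptor *Ackr3*, which takes up CXCL12, is no member by symbol but was listed for both. It had 31.7, 25.9 and 19.6 CPM in S01, S02 and S03, against 33.1, 89.4 and 40.6 CPM in S04, S05 and S06 (log2 fold change 1.08, standard error 0.37, adjusted p = 0.0317). This call was lost without S02, S03 or S05 (adjusted p = 0.0805, 0.116 and 0.148). The atypical receptor was present in both cell types, with S05 highest, while the signalling receptor and the ligand were listed for CPCCs only. The *Cxcr4* promoter is shown beside that of its ligand. It lies at chr1:128592250-128592549 on the − strand, and its capitals mark 2 overlapping TATA boxes on opposite strands at 32 and 30 bases before the start.
Cxcr4: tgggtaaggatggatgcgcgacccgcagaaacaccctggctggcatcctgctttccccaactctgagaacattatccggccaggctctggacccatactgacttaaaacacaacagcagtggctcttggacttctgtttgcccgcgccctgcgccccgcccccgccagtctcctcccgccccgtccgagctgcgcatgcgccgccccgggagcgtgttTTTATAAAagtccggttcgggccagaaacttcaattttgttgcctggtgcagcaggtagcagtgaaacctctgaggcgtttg

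The receptors *Cxcr6* and *Ccr1* lie close together on chromosome 9 (123806477 to 123968693) and were missing from mESCs. *Ccr1*, a receptor of CCL3, CCL6, CCL7 and CCL9 on myeloid cells, had 22.9, 3.52 and 3.78 CPM in S04, S05 and S06 (at least 22.5-fold higher, 8.15-fold without S04). *Cxcr6*, the receptor of CXCL16, had 11.8, 7.28 and 2.18 CPM (at least 15.8-fold, 10.6-fold without S04). Both were highest in S04. *Ccr4*, the CCL17 receptor, had 2.01, 2.35 and 0.731 CPM in the mESC libraries and 0.199, 3.52 and 1.38 CPM in S04, S05 and S06, and its direction changed with the library left out (log2 fold change −0.02 with all, −1.11 without S05 and 0.53 without S04). *Cxcr5* and *Cxcr2* were listed for CPCCs only, at 1.09 and 0.459 CPM, with bounds of 2.43- and 1.02-fold, and without S05 that of *Cxcr2* was 0.589, so that no direction holds for it. *Ccr7*, with a mean under 1 CPM in both cell types, was not tested. Also no member by symbol, *Cx3cl1*, the membrane-bound ligand of CX3CR1, rose from 2.78, 2.65 and 2.19 CPM in mESCs to 58.9, 97.9 and 55.0 CPM in the CPCC libraries (log2 fold change 4.79, standard error 0.32, adjusted p = 5.38e-06). Its receptor *Cx3cr1*, known from microglia and macrophages, was listed for CPCCs only at 41.3, 17.9 and 7.91 CPM, in the order of the immune markers.

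Among the interleukins, *Il11* had the highest level per kb of exon in CPCCs and *Il34* the highest in mESCs. *Il11* (chromosome 7, 4772378 to 4782858), a stromal cytokine of the IL-6 family known from heart fibroblasts, had 37.3, 12.3 and 14.1 CPM in S04, S05 and S06. It was missing from mESCs and at least 47.4-fold higher in CPCCs, or 29.4-fold without S04. Its promoter is shown as that of the leading interleukin. Of 2 starts in the RefSeq table, the one 4717 bases inside the interval of the deposited table holds a motif and is printed. It lies at chr7:4778092-4778391 on the − strand, and its capitals mark an AP-1 match 98 bases before that start.
Il11: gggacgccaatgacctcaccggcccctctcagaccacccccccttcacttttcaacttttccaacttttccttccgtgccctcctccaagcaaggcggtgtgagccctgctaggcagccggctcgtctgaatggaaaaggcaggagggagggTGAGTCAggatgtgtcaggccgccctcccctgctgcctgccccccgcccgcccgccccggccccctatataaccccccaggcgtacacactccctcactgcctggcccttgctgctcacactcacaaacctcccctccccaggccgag

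Both receptor parts for IL-11 were measured, and each was higher in CPCCs. *Il11ra1*, the specific chain, had 1.39, 1.03 and 1.90 CPM in S01, S02 and S03, against 18.3, 18.4 and 16.2 CPM in S04, S05 and S06 (log2 fold change 3.60, standard error 0.36, adjusted p = 4.24e-05). *Il11ra1* has a near-identical copy on the same chromosome, so reads may be split between them. *Il6st*, which encodes the shared chain gp130, had 68.0, 56.2 and 49.0 CPM in the mESC libraries and 101.8, 148.8 and 89.6 CPM in the CPCC libraries (log2 fold change 0.97, adjusted p = 0.00558). The CPCC libraries were above every mESC library for both chains. *Il6ra*, the specific chain for IL-6, had 6.95, 13.1 and 6.73 CPM in the mESC libraries and 4.47, 7.28 and 1.72 CPM in the CPCC libraries and did not pass (adjusted p = 0.139). *Il6* itself was near the floor, at 2.09, 2.43 and 0.115 CPM in S04, S05 and S06. *Lifr*, the chain that the LIF of the mESC medium binds, was lower in CPCCs, at 76.9, 75.8 and 66.8 against 44.0, 38.9 and 45.8 CPM (log2 fold change −0.77, adjusted p = 0.0036). *Osmr*, the oncostatin M receptor chain, was listed for CPCCs only at 64.0, 79.4 and 36.9 CPM, at least 134-fold higher. Its ligand *Osm* was listed for mESCs only, at 11.1, 7.94 and 8.04 CPM, at least 26.9-fold lower in CPCCs. Of these genes of the gp130 family, *Lifr* and *Osm* were lower while *Il11ra1*, *Osmr* and *Il6st* were higher in CPCCs. The ligand *Lif* was also higher there (log2 fold change 4.19, edgeR adjusted p = 3.3e-05). *Cntfr* was listed for CPCCs only, at 3.28, 5.70 and 5.27 CPM in S04, S05 and S06.

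*Il34*, a ligand of the macrophage receptor CSF1R, was the only tested member lower in CPCCs. It had 7.57, 3.53 and 5.70 CPM in S01, S02 and S03, against 0.497, 0.485 and 1.03 CPM in S04, S05 and S06, without overlap (log2 fold change −3.04, standard error 0.59, adjusted p = 0.00194). It stayed past the threshold without any 1 library. *Csf1r* itself was listed for CPCCs only, at 55.8, 19.2 and 4.93 CPM in S04, S05 and S06. *Il7*, a stromal growth factor of lymphocytes, had 1.08, 1.32 and 0.585 CPM in the mESC libraries and 10.8, 4.12 and 2.41 CPM in S04, S05 and S06 (log2 fold change 2.53, standard error 0.70, adjusted p = 0.0117). S04 was the highest, and without it the log2 fold change was 1.71 (adjusted p = 0.0498). No *Il7r* row is among the members, whereas the second chain of its receptor, *Il2rg*, had a mean of 1.04 ± 1.01 CPM in the mESC libraries and 2.73 ± 2.06 CPM in CPCCs (SD, n = 3 each) and did not pass (adjusted p = 0.184), and exons of a predicted gene on the same strand overlap 30.5% of its exon bases.

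*Il33* and *Il18* are alarm signals of the IL-1 family that are stored in cells, and both were listed for CPCCs only. *Il33* had 2.98, 11.4 and 11.2 CPM in S04, S05 and S06 (at least 19.1-fold higher, 25.3-fold without S04), so S04 was its lowest library. *Il18* had 7.75, 5.34 and 4.58 CPM (at least 13.2-fold, 11.1-fold without S04). The remaining interleukins were low. *Il15*, a growth factor of natural killer cells, had 5.37, 1.33 and 1.03 CPM (at least 5.76-fold higher, 2.64-fold without S04). *Il24* and *Il16* had means of 1.38 and 1.35 CPM, with bounds of 3.09-fold (1.95 without S06) and 3.00-fold, and *Il1a* and *Il17b* were under the level of a bound. *Il23a* and *Il17f* had 2.23 and 1.70 CPM on average in the mESC libraries and 1.07 and 0.954 CPM in the CPCC libraries and did not pass (adjusted p = 0.211 and 0.291), and *Il17d* was not tested. *Il1f9*, another name for IL-36 gamma, was listed for mESCs only at 0.155, 0.883 and 1.75 CPM.

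The interleukin receptors held most of the calls: of 11 tested, 8 were higher in CPCCs (72.7%, against 31.7% of all genes tested) and none was lower (29.7% of all genes were), at a median log2 fold change of 1.42. Of 9 tested ligands, 2 were higher and 1 was lower, and the difference from the receptors was not tested. At an unadjusted p under 0.05 there was also no lower receptor, and DESeq2 called none lower. The largest log2 fold change was that of *Il10rb*, a chain shared by the receptors of IL-10, IL-22 and type III interferons. It had 0.463, 0.441 and 0.731 CPM in S01, S02 and S03, against 40.9, 24.7 and 10.8 CPM in S04, S05 and S06 (log2 fold change 5.50, standard error 0.61, adjusted p = 8.01e-05). Every CPCC library was above 10 CPM and every mESC library below 1. Exons of a predicted gene on the same strand overlap 14.9% of its exon bases. The specific chains that pair with it were low: *Il10ra* had 2.59, 1.09 and 0.344 CPM and *Il22ra1* 0.199, 0.364 and 0.573 CPM in S04, S05 and S06, and neither was listed for mESCs.

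**Figure D2:**
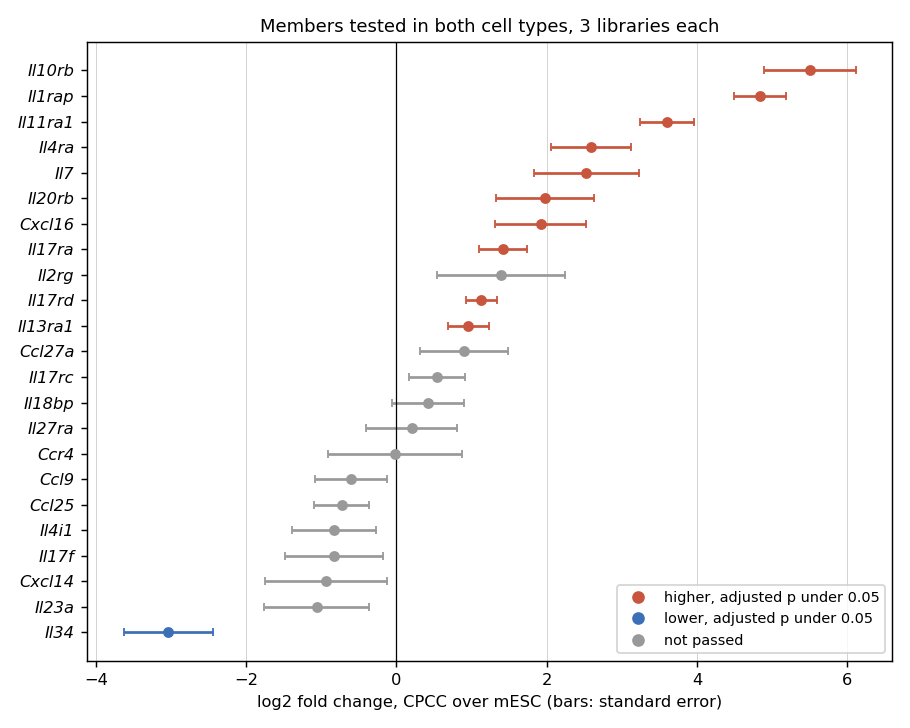
Log2 fold change in CPCCs over mESCs of the 23 members tested, with bars of 1 standard error, 3 libraries per cell type. Red points passed an adjusted p under 0.05 as higher, the blue point as lower, and grey points did not pass. The 8 receptors among the 10 red points include *Il10rb* at 5.50 and *Il1rap* at 4.84, and *Il34* at −3.04 is the only blue point.

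Within the IL-1 receptor family, the shared signalling chain had the highest level per kb of exon in CPCCs. *Il1rap*, the second chain for IL-1, IL-33 and IL-36, had 2.32, 2.06 and 2.78 CPM in the mESC libraries and 95.3, 65.2 and 45.8 CPM in S04, S05 and S06 (log2 fold change 4.84, standard error 0.35, adjusted p = 7.49e-06). The chains that bind the ligands lie in 1 cluster on chromosome 1 (40084768 to 40551706). *Il1r1*, which binds IL-1, was listed for CPCCs only at 17.1, 12.5 and 7.68 CPM (at least 27.7-fold higher, 22.5-fold without S04). Its neighbours were low: *Il1rl1*, the IL-33 receptor, had a mean of 0.90 CPM, *Il1rl2*, the IL-36 receptor, 0.454 CPM, and *Il18rap*, the second IL-18 chain, 3.00 CPM in CPCCs, and none of these was listed for mESCs. The other IL-18 chain, *Il18r1*, and the decoy *Il1r2* were instead listed for mESCs only. *Il18r1* had 10 counts there, all in S02, and *Il1r2* had 19 in S02, 6 in S03 and none in S01. So of the 6 genes in this cluster 4 were listed for CPCCs only and 2 for mESCs only, and *Il1r1* alone had a bound of at least 10-fold. *Il18bp*, which neutralises IL-18, had 2.78, 3.09 and 5.56 CPM in the mESC libraries and 4.37, 7.16 and 3.78 CPM in the CPCC libraries and did not pass (adjusted p = 0.469).

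Receptors for IL-4 and IL-13 were higher in CPCCs, while neither *Il4* nor *Il13* is among the members. *Il4ra* had 2.94, 2.35 and 4.83 CPM in S01, S02 and S03, against 31.6, 21.6 and 7.91 CPM in S04, S05 and S06 (log2 fold change 2.59, standard error 0.53, adjusted p = 0.00251). *Il13ra1*, which pairs with it, had 7.42, 9.12 and 10.97 CPM in the mESC libraries and 19.4, 18.7 and 15.4 CPM in the CPCC libraries (log2 fold change 0.96, standard error 0.27, adjusted p = 0.0133). Its call was lost without S01 (adjusted p = 0.0541). *Il21r*, the neighbour of *Il4ra* on chromosome 7, had 1.69, 0.364 and 0.115 CPM in S04, S05 and S06 and was missing from mESCs. Its bound was 1.61-fold with S04 and 0.534 without it, so that no direction holds without that library. Per kb of exon the mean CPCC levels of the 2 neighbours were 3.39 for *Il4ra* and 0.217 CPM for *Il21r*.

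Of the IL-17 receptors, *Il17rd*, *Il17ra* and *Il17rc* were listed for both cell types. *Il17rd*, also known as Sef, an inhibitor of FGF signalling, was the receptor with the highest level per kb of exon in mESCs. It had 41.4, 43.0 and 40.7 CPM in S01, S02 and S03, against 71.5, 86.6 and 115.6 CPM in S04, S05 and S06 (log2 fold change 1.13, standard error 0.21, adjusted p = 0.00142). S06 was the highest, the reverse of the order of the immune markers. *Il17ra*, the chain shared by IL-17 receptors, had 14.1, 16.5 and 7.46 CPM in the mESC libraries and 39.0, 36.5 and 26.0 CPM in the CPCC libraries (log2 fold change 1.42, standard error 0.32, adjusted p = 0.00426). *Il17rc*, which pairs with it, had 4.63, 7.21 and 6.00 CPM in the mESC libraries and 6.66, 11.5 and 7.79 CPM in CPCCs. These overlapped, and it did not pass (adjusted p = 0.234). *Il17rb* was under the level of a bound in CPCCs and missing from mESCs. Of the ligands of this family, *Il17f*, *Il17d* and *Il17b* had means under 2 CPM in each cell type.

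Among the rest of the receptors, *Il15ra*, which presents IL-15 to other cells, had 11.5, 6.55 and 4.36 CPM in S04, S05 and S06 and was missing from mESCs (at least 16.7-fold higher, 12.2-fold without S04). *Il20rb*, a chain for IL-20 and IL-24, had 0.618, 1.03 and 0.439 CPM in the mESC libraries and 2.78, 4.0 and 1.6 CPM in the CPCC libraries (log2 fold change 1.98, standard error 0.65, adjusted p = 0.0255). Its call was lost without S01, S03 or S05, with adjusted p of up to 0.104. *Il27ra* had means of 1.78 CPM in the mESC libraries and 2.05 CPM in CPCCs, did not pass (adjusted p = 0.786) and changed sign without S01 or S04. *Il12rb1* was listed for CPCCs only at 0.47 CPM, with a bound of 1.05-fold that became 0.798 without S04, so that no direction holds for it. *Il12rb2* and *Il3ra* were not tested. The enzyme *Il4i1* shares 86.3% of its exon bases with other genes, so its values of 2.69 ± 0.70 CPM in the mESC libraries and 1.5 ± 0.515 CPM in CPCCs (SD, n = 3 each) are uncertain, and it did not pass (adjusted p = 0.221).

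The genes through which these receptors signal were counted from lists of other symbols. Among 18 tested transducers of chemokine receptors, 9 were higher and 1 was lower in CPCCs, at a median log2 fold change of 0.77 (0.48 without S04). The largest rises were those of the G protein gamma subunits *Gng12* (2.29, adjusted p = 0.000208) and *Gng10* (1.90, adjusted p = 0.00148), and the fall was that of the arrestin *Arrb2* (−1.37, adjusted p = 0.0393), whose libraries overlapped and whose call was lost without S01, S02 or S05. All 3 inhibitory G protein alpha genes of the list rose, by 1.14 for *Gnai1*, 1.15 for *Gnai2* and 1.26 for *Gnai3*, and the call of *Gnai1* was lost without S01, S02 or S03 (adjusted p of up to 0.0608). Of 13 tested shared chains and receptors with other names, 7 were higher and 3 were lower, at a median of 0.97. Here *Lif*, a cytokine of the gp130 family, rose by 4.19 (adjusted p = 3.3e-05), and *Sigirr*, an inhibitory receptor of the IL-1 family, fell most (−2.32, adjusted p = 0.00167) before *Crlf3* (−1.74, adjusted p = 8.56e-05). Atypical receptors and chemokines with other names had 3 tested, of which *Cx3cl1* and *Ackr3* were higher.

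Both lists of genes further downstream held genes of each direction. Of 25 JAK, STAT and SOCS genes, all tested, 9 were higher and 6 were lower, at a median of 0.30 (0.17 without S04). *Socs5* (2.81, adjusted p = 0.000106) and *Jak2* (2.77, adjusted p = 0.000284) rose most, and *Stat4* (−1.89, adjusted p = 0.0431) and the phosphatase gene *Ptpn6* (−1.73, adjusted p = 0.000587) fell most. The call of *Stat4* was lost without S01, S03, S05 or S06, with a log2 fold change of −1.06 without S01. Among 28 tested MyD88, IL-17 adaptor and NF-kappa-B genes, 14 were higher and 3 were lower, at a median of 0.80. *Tnfaip3*, which encodes the NF-kappa-B inhibitor A20, rose from 1.39, 0.588 and 2.05 CPM in mESCs to 62.2, 25.3 and 20.4 CPM in CPCCs (4.73, adjusted p = 0.00014), and *Nfkbie* rose by 2.38 (adjusted p = 0.0144). *Relb* fell from 79.3, 74.3 and 64.7 CPM to 18.0, 24.5 and 19.1 CPM (−1.82, adjusted p = 7.63e-05), and *Nfkbib* had a log2 fold change of −0.58 (adjusted p = 0.0473). The call of *Nfkbie* was lost without S03 or S05, and that of *Nfkbib* without any library but S03. These shares can be read against 31.7% higher and 29.7% lower among all genes tested.

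Levels of different genes were compared only per kilobase of exon, with exon lengths from GENCODE M21. On this scale 13 of the 25 members highest in CPCCs were ligands and 12 were receptors. *Cxcl12* led at 59.4 CPM per kb, followed by *Ccl2* at 31.8, *Ccl7* at 16.6, *Ccl17* at 14.7, *Ccl12* at 11.3 and *Il11* at 10.2. All of these were highest in S04. In S05 and S06, *Cxcl12* had 59.9 and 30.9, *Ccl2* 15.9 and 14.7 and *Ccl7* 13.3 and 7.58 CPM per kb. There *Ccl17* had 5.90 and 9.59, *Ccl12* 9.03 and 4.91 and *Il11* 5.89 and 6.78 CPM per kb. The libraries of neighbours in this order overlapped, so the places from *Ccl2* on are not separated by their spread. Those of *Cxcl12* (30.9 to 87.5 CPM per kb) lay above every library of *Ccl7*, *Ccl17*, *Ccl12* and *Il11*. Within each CPCC library *Cxcl12* was also above *Ccl2*. The highest receptors were *Il17rd* at 8.31, *Cxcr4* at 8.14, *Il10rb* at 6.69 and *Il1rap* at 6.06 CPM per kb, and these also overlapped. Without S04 *Cxcr4* came first of these receptors, at 10.7 and 10.9 CPM per kb in S05 and S06, against 7.88 and 10.5 for *Il17rd*. In both libraries *Cxcr4* was also above *Ccl17*, *Ccl12* and *Il11*. In mESCs the highest level per kb was that of *Ccl9*, at 5.84, before *Il17rd* at 3.79, *Il34* at 2.86 and *Il13ra1* at 2.47. Long exons move the order: *Il1rap* has 11360 exon bases and *Ccl17* has 514, so that the mean of 68.8 CPM of the former and 7.56 CPM of the latter change places per kb.

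**Figure D3:**
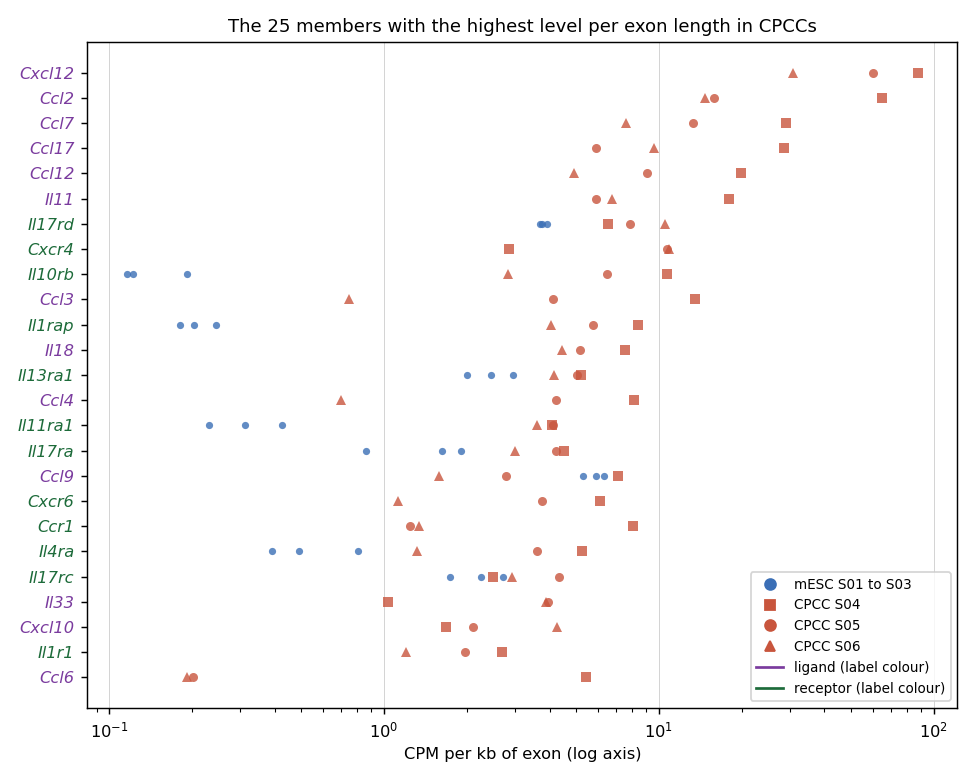
CPM per kb of exon (log axis) in each library for the 25 members with the highest mean in CPCCs on this scale. Red symbols are CPCC libraries and blue points mESC libraries, shown where the gene is listed for mESCs, and gene labels are purple for ligands and green for receptors. By the mean with S04, ligands fill the first 6 places, with *Cxcl12* at a mean of 59.4, and *Il17rd* is the first receptor. In both S05 and S06, *Cxcr4* lies above *Il17rd*, *Ccl17*, *Ccl12* and *Il11*.

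A larger share of members than of all genes was highest in S04. Of the 67 members in the CPCC table, 41 were highest in S04 (61.2%), where 38.9% of all genes were. The order S04, S05, S06 from high to low held for 27 members (40.3%, against 23.9% of all genes), and the reverse for 8 (11.9%, against 23.5%). With at least 2 CPM in CPCCs, the CC chemokines had a median of 3.28 for the level in S04 over the mean of S05 and S06, from 0.948 for *Ccl25* to 27.5 for *Ccl6*. Interleukin receptors had a median of 1.71, from 0.690 for *Il17rc* to 3.09 for *Il2rg*. The 13 immune markers lay at 2.12 to 9.97, all above 1, and the 10 fibroblast markers at 0.183 to 1.08. Below 0.6 among the named members were *Cxcl10* (0.526), *Cxcr4* (0.265) and *Il33* (0.264). These are levels in 3 libraries, and the part of the immune cell genes or of depth in the differences was not tested.

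**Figure D4:**
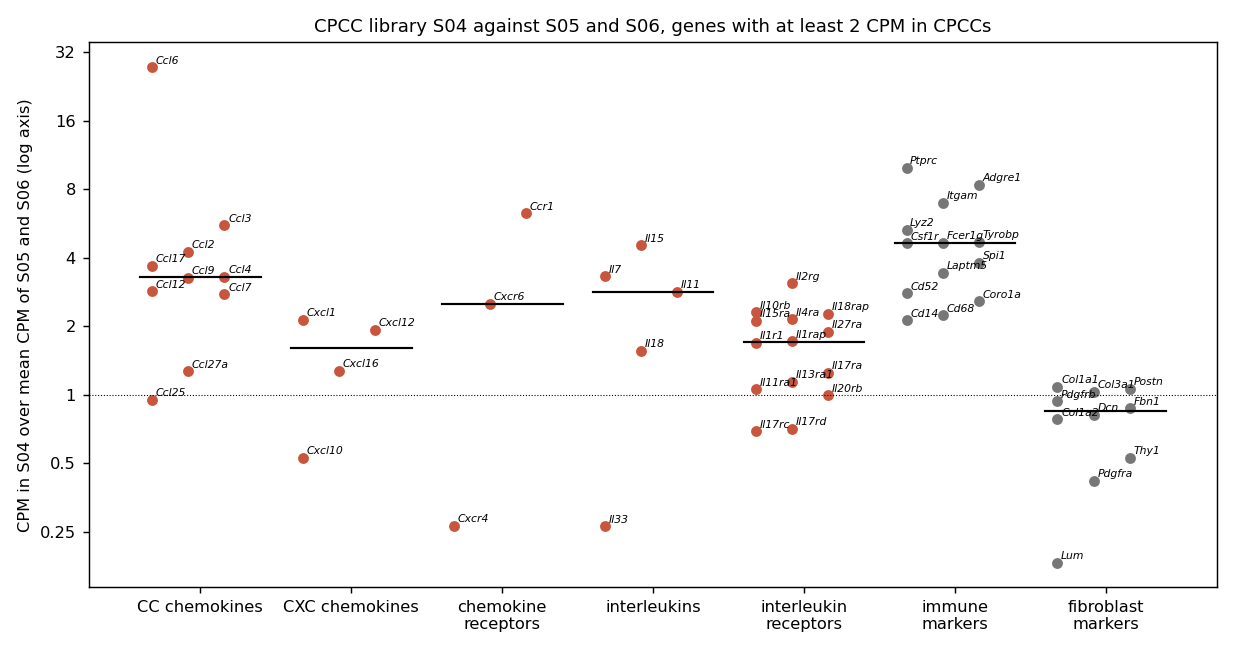
CPM in CPCC library S04 over the mean CPM of S05 and S06 (log axis) for members with a mean of at least 2 CPM in CPCCs, by group, beside immune and fibroblast markers in grey. Each point is a gene and each black line the median of a group. CC chemokines lie mostly above 2, near the immune markers, whereas *Cxcr4*, *Il33* and *Cxcl10* lie below 0.6.

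Promoters were searched on both strands for 4 motifs in the RefSeq windows of 300 bases that cover 51 of the 70 members, and matches are described only. The AP-1 site TGANTCA was found for 12 of the 51 (23.5%, against 6.64% of 12479 listed genes) and for 7.81% of all 32851 promoters in the table. The kappa-B consensus was found for 12 (23.5%, against 12.4% of listed genes and 8.46% of all promoters). The ISRE (GAAA, any 2 bases, GAAA) was present for 3, *Cxcl10*, *Cxcl14* and *Il1rap* (5.88%, against 3.62% and 3.44%). The TATA box TATAAA was present for 10 (19.6%, against 9.53% and 13.6%). Members can have several promoters, so the shares of all promoters compare with those of the 64 member promoters. These were 18.8% for AP-1, 18.8% for kappa-B, 4.69% for the ISRE and 17.2% for the TATA box. Matches of different motifs were counted separately where they overlap. Both AP-1 and kappa-B letters were present for *Ccl9*, *Ccl27a*, *Cxcl10*, *Il16*, *Il22ra1* and *Il6*. The levels of these 6 differed: *Ccl9* was present in both cell types, *Cxcl10* was listed for CPCCs only, and *Il22ra1* had under 1 CPM in every CPCC library.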

How the data were processed

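RNA of 3 mESC and 3 CPCC samples was made into cDNA with an oligo-dT based kit that does not mark strand. The authors deposited estimated counts (expected counts) of reads per gene, not normalized, in 1 table per cell type, and 17.8% to 21.4% of a library's values are fractional. The submitters' processing notes name STAR 2.7 and mm10; the counter is not given in the sources used here. Columns were assigned to a cell type by the table's name and the labels.

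Counts were rounded. The 13001 genes in both tables were filtered with filterByExpr (530 removed) and tested with edgeR 4.0.16 (R 4.3.3), by its quasi-likelihood test with TMM and library sizes over shared genes; calls need an adjusted p (Benjamini-Hochberg) under 0.05. Standard errors are the log2 fold change over the square root of F. Library totals were 6442639 to 6907330 counts in mESCs and 8468819 to 11436062 in CPCCs. Bounds are the mean CPM where a gene is listed over the mean CPM of 3 counts per library where it is missing. They refer to the observed counts and allow for neither counting error nor the spread between libraries. With 3 against 3 libraries a two-sided exact permutation test of 1 gene cannot go below p = 0.1. Nothing in the tables ties libraries to separate cultures, so p-values measure the spread between these libraries.

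Members, lists and tests were chosen with earlier results of these data known. Values in every library are given for members with at least 5 CPM in a cell type, members past the threshold without overlap, and members of 1 table with a bound of at least 10-fold; of each list, the 2 largest rises and falls and the partner chains are named, except 1 gene that is not reported here. Cx3cr1, Csf1r, Osm and the Gnai genes were named after their values were seen. Gene intervals are those of the tables (GRCm38), exon lengths and overlaps come from GENCODE M21, and promoters from RefSeq. DESeq2 1.42.0, other normalizations, filters and left-out libraries were alternatives. Figures were drawn with matplotlib 3.10.9 in Python 3.11.15.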

Additional observations from a re-analysis of the deposited data

How the results depend on the processing

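Of the 23 members fitted, 15 kept their call and direction under every alternative in which they could be fitted: DESeq2, upper-quartile normalization, library totals without TMM, whole-table library sizes, other filters, missing genes set to 0 or 3 counts, and leaving out each library. The 10 higher members became 5 with at least 10 counts required in every library, where 9 members were left to test, 26 with missing genes at 0 or 3 counts, and 8 to 9 with a library left out. The 1 lower member became 0 with at least 10 counts and 1 to 3 with a library left out (2 without S01, 3 without S04). With missing genes at 0 and 3 counts, the higher genes numbered 4 and 4 among atypical receptors (2 in the main test, 1 without S02, S03 or S05), 17 and 15 among transducers and 11 and 11 among shared chains. The 1 lower transducer became 0 with library totals without TMM and 0 to 2 with a library left out (0 without S01, S02 or S05, 2 without S04). The 3 lower NF-kappa-B genes became 1 with at least 10 counts, 5 with missing genes at 3 counts and 1 to 2 with a library left out (1 without S01, S02, S05 or S06). Median log2 fold changes turned to −0.12 for shared chains with at least 10 counts and to −0.17 for JAK, STAT and SOCS genes without S03 (up to 0.39 with another library left out). Ccr4 turned to 0.0050 without TMM and ran from −1.11 to 0.53 with a library left out, and Il27ra from −0.16 to 0.50. The cause was not tested. No paired analysis was possible because the columns carry no replicate numbers. Low counts limit members under 3 counts per library, where differences were not detectable at this depth.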
